A study of Mus musculus with 4 samples.

Results

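Interleukin 33 (Il33) and 8 genes of the type 2 immune response were followed through the stromal vascular cells of mouse inguinal white adipose tissue (iWAT). The 9 genes were chosen by name and looked up by symbol among the 31053 genes of the count matrices, and all 9 were found. They are the ligand Il33, its receptor Il1rl1 (ST2), the effector genes Il13, Il5, Il4 and Areg, the receptors Il17rb and Il2ra, and the transcription factor Gata3. The question was which cells held the ligand, which held the receptor and the effectors, and how these levels compared between genotypes.

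The tissue came from 7 pooled control mice, named C57BL/6 in the design text, and 8 pooled mice labelled iAdFASNKO. That label is not explained; it is known as an inducible, adipocyte-specific deletion of Fasn, which encodes fatty acid synthase. For age, sex and any inducing treatment the sources used here give nothing. Adipocytes, the cells in which the gene is deleted, are lost when this fraction is prepared: 0 of the retained cells in any library carried at least 5 of 6 adipocyte markers, so Fasn itself checks no label here. Each pool was divided with magnetic beads into lineage-positive (Lin+, which also held many progenitors here) and lineage-negative (Lin-) cells, giving 1 droplet library per genotype and fraction and 4 libraries in all. With 1 library per group there is no replicate and no test between genotypes.

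Interleukin 33 is an alarmin, a cytokine stored in the nucleus of barrier, endothelial and stromal cells and released when they are damaged. It binds the receptor encoded by Il1rl1 together with the shared chain Il1rap, and it drives group 2 innate lymphoid cells (ILC2), mast cells and a subset of regulatory T cells. In adipose tissue stromal interleukin 33 is known to maintain ILC2 and regulatory T cells, and type 2 cytokines are linked to beige fat formation.

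The libraries held 21622291 to 33016494 UMIs (unique molecular identifiers, each a counted transcript) over all barcodes. After filtering, 14701 of 18336 barcodes were retained, 2888 to 4425 per library. Median UMIs per cell were 9116 in control Lin-, 5359 in control Lin+, 4150.5 in iAdFASNKO Lin- and 3302 in iAdFASNKO Lin+, so the control cells were deeper in both fractions. Levels are CPM, the UMIs of a gene scaled to 1e6 UMIs of its class or library. Fasn stood at 38.0 and 36.3 CPM in the control and 24.9 and 21.7 CPM in the iAdFASNKO libraries (Lin-, then Lin+). Cells were assigned to classes by marker lists, none of them a member gene. In all, 1312 cells (8.92%) were left ungated, since they passed no gate or passed several with none clearly ahead. Class levels below are from UMIs summed over all cells of the class, with 95% intervals that cover counting error only.

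The libraries were not fully separate. A total of 209 barcodes occurred in more than 1 library, 100 of them in all 4, with a median of 25381 UMIs in the deepest copy and 571 in the others. They made up 488 retained cells (3.32%) and held 286 of 2192 Il33 UMIs, 117 of 585 Areg UMIs, 17.3% of the Il1rl1 and 27.3% of the Gata3 UMIs, but 0 of the Il13 and Il5 UMIs. Their share was 46 of 71 cells in a class gated on epithelial genes such as Krt8 and Epcam, 8 of 96 Treg-like cells, 31 of 337 endothelial-like cells, 51 of 2023 interstitial progenitor-like cells, 1 of 149 ILC2-like cells and 0 of 59 mast-cell-like cells. The main results that rest on these cells are given with and without them.

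The upstream windows of 4 members are shown because these 4 genes stand for the steps described below: ligand, receptor, cytokine and growth factor. Il33 lies on chr19 (29925114-29960718, plus strand), Il1rl1 on chr1 (40429570-40465415, plus strand), Il13 on chr11 (53631324-53634702, minus strand) and Areg on chr5 (91139599-91148432, plus strand), in mm10 coordinates. The windows are the 250 bases before the first annotated start in RefSeq on GRCm38.p6, written 5′ to 3′ on the gene's strand. They are chr19:29924863-29925112, chr1:40429320-40429569, chr11:53634703-53634952 and chr5:91139349-91139598, and none of these 4 windows overlapped an annotated exon. Capitals mark matches to GATAA (the core of GATA factor sites), TGACGTCA (the cyclic AMP response element) and GGAAANTCC (a pattern related to NF-kappaB and NFAT sites), searched on both strands; TGACGTCA was added to the search after the windows had been read.
Il33: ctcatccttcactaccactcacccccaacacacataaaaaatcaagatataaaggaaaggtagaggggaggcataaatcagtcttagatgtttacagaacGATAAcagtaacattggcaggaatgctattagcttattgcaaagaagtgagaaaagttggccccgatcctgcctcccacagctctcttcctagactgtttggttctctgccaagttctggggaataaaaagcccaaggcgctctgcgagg
Il1rl1: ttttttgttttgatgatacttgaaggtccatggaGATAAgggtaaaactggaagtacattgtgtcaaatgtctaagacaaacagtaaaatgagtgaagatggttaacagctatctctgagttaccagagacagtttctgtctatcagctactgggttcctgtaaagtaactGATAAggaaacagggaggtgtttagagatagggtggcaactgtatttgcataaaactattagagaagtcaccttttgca
Il13: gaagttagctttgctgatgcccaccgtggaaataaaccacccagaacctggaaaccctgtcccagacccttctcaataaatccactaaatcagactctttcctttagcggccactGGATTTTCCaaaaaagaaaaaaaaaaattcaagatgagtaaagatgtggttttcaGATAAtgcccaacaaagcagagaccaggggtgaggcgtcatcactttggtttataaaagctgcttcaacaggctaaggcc
Areg: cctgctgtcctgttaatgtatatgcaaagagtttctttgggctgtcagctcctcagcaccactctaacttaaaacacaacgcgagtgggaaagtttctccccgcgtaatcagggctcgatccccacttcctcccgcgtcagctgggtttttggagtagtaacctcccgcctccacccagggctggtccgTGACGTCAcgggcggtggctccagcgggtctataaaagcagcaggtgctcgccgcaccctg
GATAA occurred 150 to 146 bases before the Il33 start, at 79 to 75 and 216 to 212 bases before the distal Il1rl1 start, and at 80 to 76 bases before the Il13 start. The Il13 window also held GGAAANTCC on the opposite strand at 135 to 127 bases, and the Areg window held TGACGTCA at 61 to 54 bases. Of all 32851 RefSeq windows of this length, 22.6% held GATAA, 1.55% held TGACGTCA and 1.07% held GGAAANTCC. A match describes the letters only. The 9 members had 12 windows. Those of Gata3, Il17rb, Il2ra, Il4 and Il5 and of the second Il33 start held none of the 3 patterns. The window of the second Il1rl1 start overlapped an Il1rl1 exon and held 1 GATAA, on the opposite strand. Il4, Il13 and Il5 lie within 1 cluster on chr11, with 12.7 kb between Il4 and Il13 and 86.1 kb between Il13 and Il5.

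**Figure D1:**
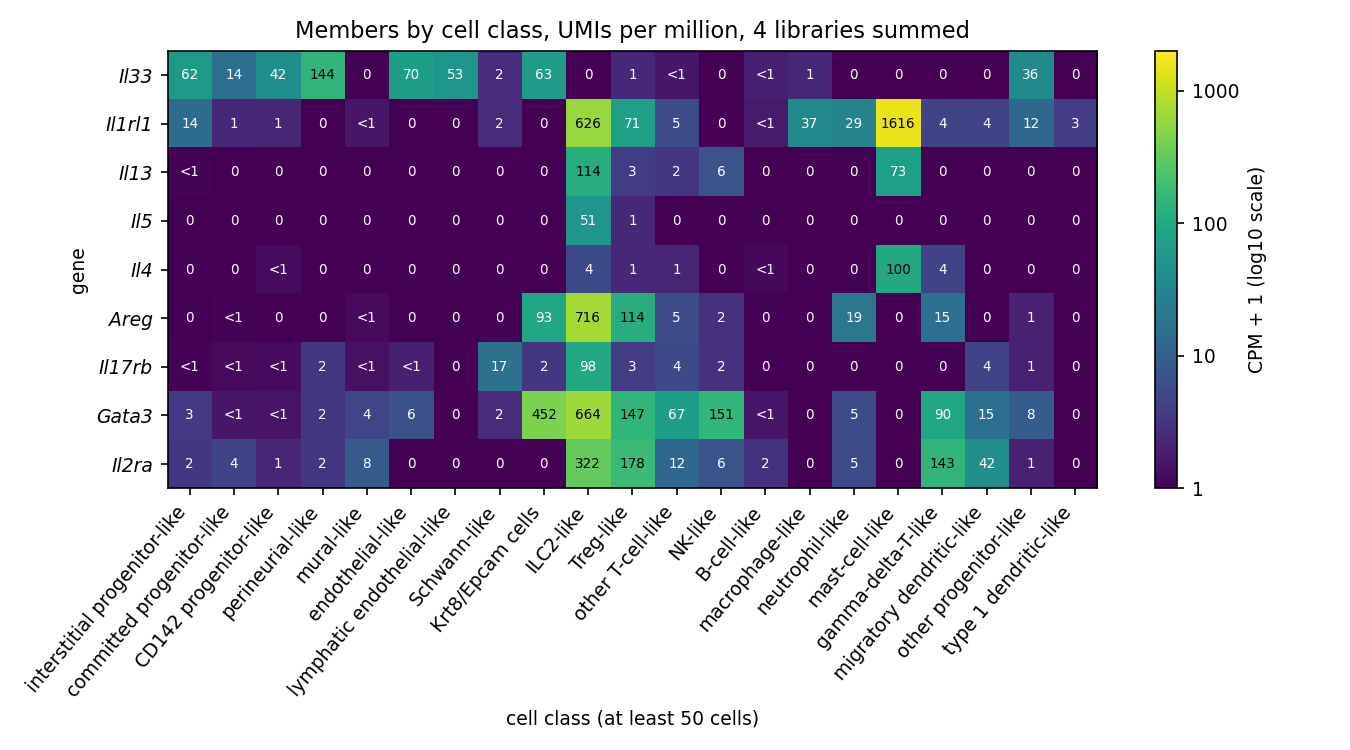
Level of each of the 9 genes (rows) in each class with at least 50 cells (columns), as CPM over the 4 libraries summed, printed in the cell and coloured on a log10 scale. Il33 is highest in perineurial-like (144) and endothelial-like (70.4) cells, and Il1rl1 in mast-cell-like cells (1616).

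The ligand was held by stroma. Of 2192 Il33 UMIs, 490 were in control Lin-, 597 in control Lin+, 379 in iAdFASNKO Lin- and 726 in iAdFASNKO Lin+, spread over 1092 cells. Stromal classes (progenitor, mural, endothelial, lymphatic and Schwann-like cells) held 82.0%, 95.8%, 96.0% and 95.6% of them in the same order. The low value of control Lin- lay beside 10.2% in the Krt8/Epcam cells and 7.76% in ungated cells. Without the shared barcodes the Krt8/Epcam level in that library went from 67.1 CPM (50 UMIs) to 6.63 CPM (1 UMI). Lymphoid classes together held 0 Il33 UMIs in either Lin- library, 4 in control Lin+ and 5 in iAdFASNKO Lin+. ILC2-like and mast-cell-like cells, which carry the receptor, held 0 Il33 UMIs in 149 and 59 cells.

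Interstitial progenitor-like cells held most of the Il33 UMIs of both Lin+ libraries (66.7% in control, 74.4% in iAdFASNKO). They are the Pi16- and Dpp4-positive cells of the connective tissue sheath. Their level was 59.5 CPM (interval 40.7 to 84.0) in control Lin-, 56.1 (50.7 to 61.9) in control Lin+, 25.6 (16.7 to 37.4) in iAdFASNKO Lin- and 72.9 (66.9 to 79.3) in iAdFASNKO Lin+, from 54, 793, 136 and 1040 cells. The iAdFASNKO Lin- library was thus the low one and the other 3 lay above it with no overlap of intervals. Committed progenitor-like cells, the class nearer to adipocytes, stood at 11.2, 19.9, 14.1 and 30.9 CPM in the same order. The interstitial level exceeded the committed level 5.32-fold (3.56 to 7.72) in control Lin- and 1.82-fold (1.15 to 2.76) in iAdFASNKO Lin-, and 2.82-fold and 2.36-fold in control and iAdFASNKO Lin+. All 4 intervals lay above 1. CD142 progenitor-like cells, the F3-positive cells known to restrain adipogenesis, had 29.9, 32.7, 56.2 and 53.2 CPM. They lay below the interstitial cells in both control libraries and in iAdFASNKO Lin+, and above them in iAdFASNKO Lin-, where the ratio of interstitial to CD142 was 0.455 (0.267 to 0.762).

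Il33 also graded within the progenitors by the interstitial markers themselves. Cells with 7 or 8 of the 8 markers held 82.2 CPM in control Lin- (17 cells), 71.1 in control Lin+ (435 cells), 55.5 in iAdFASNKO Lin- (16 cells) and 90.2 in iAdFASNKO Lin+ (523 cells). Cells with 1 marker held 6.36, 12.5, 19.6 and 36.6 CPM, and those with none held 16.6, 5.15, 25.5 and 0 CPM, above the cells with 1 marker in both Lin- libraries. Each library was highest at 7 or 8 markers, but the course between was not steady, with 11.4 CPM at 3 markers in iAdFASNKO Lin- and 27.6 CPM at 5 in iAdFASNKO Lin+. In addition, control Lin+ cells with 1 marker had a median of 4746 UMIs and those with 7 or 8 had 9654, and the part of depth was not tested.

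**Figure D2:**
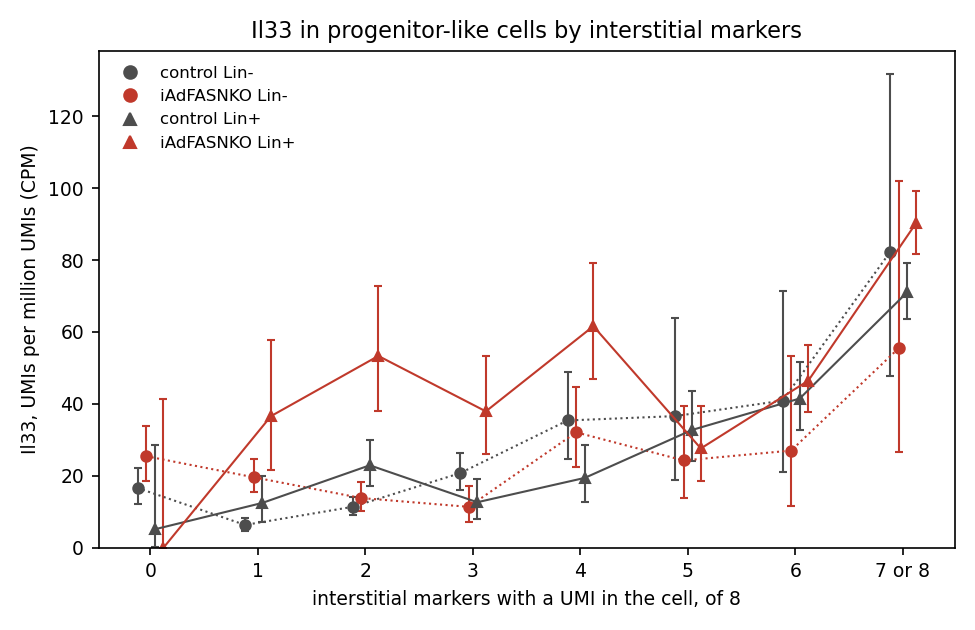
Il33 level (vertical axis, CPM with 95% counting intervals) of progenitor-like cells by the number of the 8 interstitial markers with a UMI in the cell (horizontal axis); grey is control, red iAdFASNKO, solid lines Lin+, dotted lines Lin-. Cells with 7 or 8 markers reach 82.2, 71.1, 55.5 and 90.2 CPM in control Lin-, control Lin+, iAdFASNKO Lin- and iAdFASNKO Lin+.

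The committed class was not uniform. Its cells in 1 expression cluster, led by Mfap4, Cilp and Tnc, held Il33 at 82.5 CPM in control Lin- (145 cells), 98.1 in control Lin+ (33 cells) and 70.9 in iAdFASNKO Lin- (175 cells). Cells gated as committed also lay in clusters whose markers named them otherwise. In a cluster led by Sfrp5 and Cldn1, named perineurial-like, they held 157 CPM in iAdFASNKO Lin- (33 cells). In a cluster led by Agt and C7, named CD142 progenitor-like, they held 5.27 CPM in control Lin- and 22.3 to 37.8 CPM in the other 3 libraries. The committed cells in the 3 clusters that hold most of the class had 0 to 4.69 CPM wherever a library held enough of them. Those clusters were unequally filled: cluster 5 held 839 of the 1975 control and 167 of the 1851 iAdFASNKO committed cells of Lin-, and cluster 2 held 239 and 903. Il33 UMIs were also concentrated in few committed cells of Lin+, where 5 cells held 57.5% of the control and 70.6% of the iAdFASNKO UMIs. In interstitial cells of Lin+ the 5 highest cells held 9.80% and 7.04%. The interstitial class was not uniform either. Its cells in cluster 0 held 62.8 CPM in control Lin+ and 83.4 CPM in iAdFASNKO Lin+. Those in cluster 8, also named interstitial progenitor-like, held 4.67 CPM (73 cells) and 19.6 CPM (182 cells). In iAdFASNKO Lin- the cells of cluster 8 held 13.8 CPM (40 cells).

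Vascular and nerve-sheath cells were the other sources. Endothelial-like cells of Lin- held Il33 at near levels, control at 81.0 CPM (62.2 to 104) and iAdFASNKO at 80.4 (64.0 to 99.8), from 86 and 184 cells. Those of Lin+ had only 3 and 2 UMIs (28.7 and 8.72 CPM in 21 and 46 cells), and the intervals of the fractions overlapped in control but not in iAdFASNKO. Lymphatic endothelial-like cells had 58.0 and 49.3 CPM in Lin-. Perineurial-like cells, which wrap nerve bundles, had the highest levels of these libraries' stromal classes at 113 CPM (63.2 to 186) in control Lin-, 75.7 in control Lin+ (5 cells), 142 (95.2 to 204) in iAdFASNKO Lin- and 332 in iAdFASNKO Lin+ (9 cells, with 7 of 13 UMIs in 1 cell). In control Lin- the order ran from perineurial to endothelial, interstitial, lymphatic, CD142 and committed cells, and the intervals of neighbours overlapped except between CD142 and committed cells. Perineurial exceeded interstitial cells 5.56-fold (3.16 to 9.83) in iAdFASNKO Lin-. Mural cells (pericytes and smooth muscle) held 0 Il33 UMIs in 197 control and 796 iAdFASNKO Lin- cells, which put endothelial cells at least 41.2-fold and 94.4-fold higher, with 3 counts per library as the floor.

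**Figure D3:**
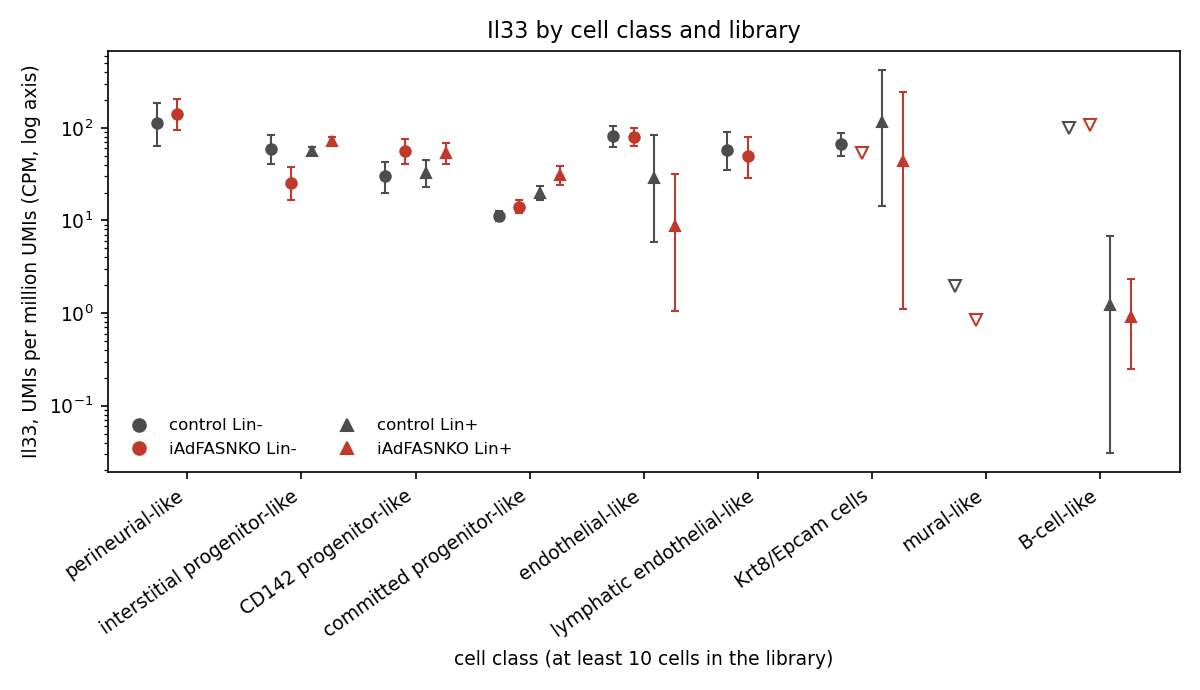
Il33 level (vertical log axis, CPM with 95% counting intervals) in each class (horizontal axis) with at least 10 cells in a library. Circles are Lin-, triangles Lin+, grey control and red iAdFASNKO, and open triangles mark the 3-count floor where no UMI was seen. Progenitor, endothelial and perineurial-like cells lie between 8.72 and 142 CPM, while mural cells of Lin- are at the floor.

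Detection was also counted per cell. Of interstitial cells, 31.5% in control Lin-, 27.1% in control Lin+, 14.0% in iAdFASNKO Lin- and 28.8% in iAdFASNKO Lin+ had an Il33 UMI, at median depths of 8824, 8503, 5851 and 6158.5 UMIs. In B-cell-like cells, which should lack the gene, the share was 0.301% (1 of 332) in control Lin+ and 0.297% (4 of 1346) in iAdFASNKO Lin+, at median depths of 2232.5 and 2446.5 UMIs. Thinning to 1000 UMIs per cell left out cells below that depth. The interstitial share was then 6.38% in control and 7.19% in iAdFASNKO Lin+, still above the B-cell share.

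Between genotypes, Il33 differed by fraction as well as by class. A ratio is iAdFASNKO over control within 1 fraction, and it is called where it is at least 1.5 or at most 1/1.5, its interval leaves out 1 and both libraries together hold at least 20 UMIs. In all progenitor-like cells of Lin+ Il33 went from 38.3 to 63.1 CPM, a ratio of 1.65 (1.47 to 1.84) that was called higher, where 13.8% of the genes measured in these cells were called in either direction. The mix of the pooled class differed, with 793 interstitial and 653 committed cells of 1746 in control and 1040 and 276 of 1675 in iAdFASNKO. In Lin- it went from 13.9 to 19.5 CPM, a ratio of 1.40 (1.19 to 1.66) that was not called (15.4% of genes called). CD142 progenitor-like cells were called higher in both fractions, with 1.88 (1.14 to 3.16) in Lin- and 1.63 (1.06 to 2.52) in Lin+, beside 13.8% and 9.07% of genes called. Neither of these CD142 calls held under a stricter marker gate, which gave 1.64 (0.917 to 2.95) and 1.53 (0.979 to 2.42).

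Interstitial cells pointed in opposite directions in the fractions. In Lin- the levels of 59.5 (control) and 25.6 CPM (iAdFASNKO) gave a ratio of 0.429 (0.246 to 0.744) called lower (13.5% of genes called), and 0.502 without the shared barcodes. In Lin+ the ratio was 1.30 (1.14 to 1.48) and was not called (12.8% of genes called). Expression cluster 0 held 35 of the 54 control but 48 of the 136 iAdFASNKO interstitial cells of Lin-, and within it the levels were 75.6 CPM (49.0 to 112) and 42.7 CPM (22.8 to 73.1), whose intervals overlap. The committed cells of Lin+ had a ratio of 1.55 (1.14 to 2.10), called higher beside 9.72% of genes, but it turned to 0.910 without the highest cell of each library (36 UMIs in the iAdFASNKO cell) and was 2.34 without the shared barcodes. In Lin-, committed cells had 1.26 (1.02 to 1.55), endothelial cells 0.993 (0.706 to 1.40), lymphatic cells 0.850 and perineurial cells 1.26 (0.653 to 2.52), none of them called, where 14.4%, 11.8%, 11.6% and 10.8% of genes were.

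Il1rl1 encodes the interleukin 33 receptor. Its 976 UMIs lay in 332 cells, with 278 in control Lin-, 253 in control Lin+, 179 in iAdFASNKO Lin- and 266 in iAdFASNKO Lin+. Mast-cell-like cells had the highest level in every library, with 1797 CPM in control Lin-, 1789 in control Lin+, 2066 in iAdFASNKO Lin- and 1306 in iAdFASNKO Lin+ from 7, 15, 17 and 20 cells, and 53 of these 59 cells had a UMI. ILC2-like cells followed, where control Lin- had 769 CPM (663 to 887) and iAdFASNKO Lin- 442 (353 to 546), from 60 and 82 cells. Mast cells exceeded ILC2 2.34-fold (1.43 to 3.64) in control Lin- and 4.68-fold (3.13 to 6.89) in iAdFASNKO Lin-. Nearly all ILC2-like cells were in Lin-, since the Lin+ libraries held 5 and 2 of them.

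Other immune cells carried less receptor. Treg-like cells are T-cell-like cells with a Foxp3 UMI or with several other regulatory T cell markers. Those of Lin+ had 90.8 CPM (control) and 68.6 CPM (iAdFASNKO), from 16 and 80 cells. The remaining T-cell-like cells of Lin+ had 16.9 and 1.51 CPM, which put Treg 45.3-fold (16.5 to 174) above them in iAdFASNKO. Type 2 dendritic-like cells had 55.9 and 102 CPM, macrophage-like cells 37.5 and 35.1 CPM and B-cell-like cells 0 and 0.903 CPM in Lin+. ILC2 and mast cells thus stood apart from the other immune classes, and Treg from other T cells.

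**Figure D4:**
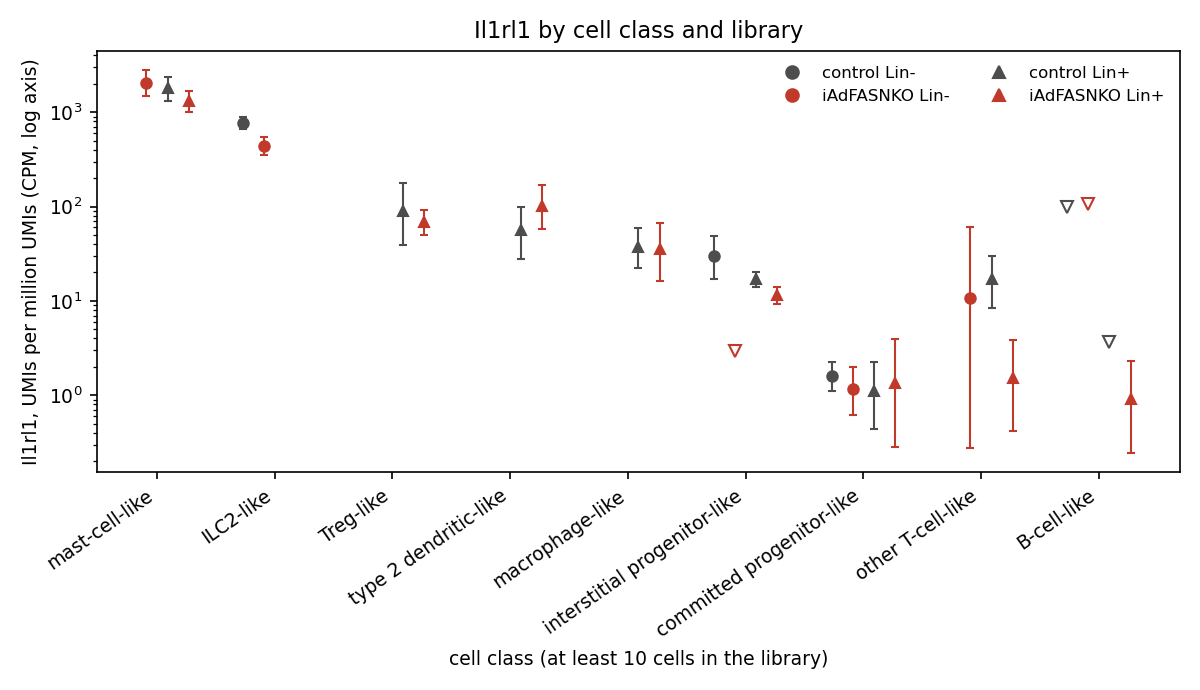
Il1rl1 level (vertical log axis, CPM with 95% counting intervals) in each class (horizontal axis) with at least 10 cells in a library, with symbols and colours as for Il33. Mast-cell-like cells lie between 1306 and 2066 CPM and ILC2-like cells of Lin- at 769 and 442 CPM.

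The receptor was not confined to receivers of the immune system. Interstitial progenitor-like cells held 29.8 CPM in control Lin-, 16.9 in control Lin+, 0 UMIs in iAdFASNKO Lin- (floor 2.95 CPM) and 11.5 CPM in iAdFASNKO Lin+. These 221 UMIs came from 33 of 2023 cells, and the 5 highest cells, led by cells with 59, 32 and 30 UMIs, held 71.0% of them. Without the shared barcodes the Lin+ levels were 6.45 and 2.77 CPM. Of the 33 cells, 9 also had an Il33 UMI and 0 had Gata3 or Il2ra. Stroma held 51.4% and 36.5% of the Il1rl1 UMIs of Lin+ (control, iAdFASNKO), against 19.1% and 10.6% in Lin-, where lymphoid cells held 68.0% and 48.0%. Without the shared barcodes stroma held fewer, 48 of 167 Il1rl1 UMIs in control Lin+ and 27 of 193 in iAdFASNKO Lin+.

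In ILC2-like cells of Lin- Il1rl1 was lower in iAdFASNKO, with a ratio of 0.574 (0.439 to 0.746) beside 16.6% of genes called in these cells. A UMI was present in 44 of 60 control (73.3%) and 32 of 82 iAdFASNKO cells (39.0%), at median depths of 3929.5 and 2014.5 UMIs. Thinned to 1000 UMIs the shares were 44.1% and 25.6%, and to 2000 UMIs 61.1% and 47.6%. Cells below the target depth are left out, so the 2000-UMI shares rest on 54 of the control and 42 of the iAdFASNKO cells. With classes from clusters, where 314 cells were ILC2-like, the ratio was 0.592 and called lower. Ungated cells of Lin- went the other way, from 5.90 CPM (11 UMIs, 220 cells) to 25.3 CPM (32 UMIs, 415 cells). All cells of Lin- had a ratio of 0.903 that was not called. In ILC2-like cells of at least 2000 UMIs the CPM ratio was 0.668 (0.496 to 0.891), just inside the fold that is not called, and under the stricter cell filter it was 0.698 and not called. T cell markers in the class summed to 618 CPM in control (6 of 7 detected) and 644 CPM in iAdFASNKO (5 of 7), and all 9 macrophage markers were at 0 in both. Regulatory T cell markers summed to 134 and 52.0 CPM, with Foxp3 at 0 in both, and natural killer markers to 110 and 208 CPM; their part in the result was not tested.

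The other classes with enough Il1rl1 UMIs were compared in the same way. In mast cells the ratio was 1.15 (0.667 to 2.03) in Lin- and 0.730 (0.497 to 1.08) in Lin+, not called beside 23.8% and 12.5% of genes. Treg-like cells had 0.755 (0.352 to 1.86), type 2 dendritic-like cells 1.83 (0.786 to 4.41) and macrophage-like cells 0.937 in Lin+, not called beside 10.1%, 12.4% and 11.1% of genes. All progenitor-like cells of Lin- went from 2.31 to 1.11 CPM, a ratio of 0.480 (0.251 to 0.864) called lower, which became 0.548 (0.278 to 1.02) and was not called without the shared barcodes. Interstitial cells of Lin+ had 0.678 (0.508 to 0.903), not called, and without those barcodes 0.428 (0.238 to 0.746), called lower.

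The type 2 cytokines were rare. Il13, which acts with Il4 on macrophages and stroma, had 95 UMIs in all, with 37, 5, 40 and 13 in control Lin-, control Lin+, iAdFASNKO Lin- and iAdFASNKO Lin+. ILC2-like cells of Lin- held 31 of them in control (126 CPM, 7 cells) while iAdFASNKO had 20 (104 CPM, 10 cells), which gave 0.824 (0.445 to 1.49) that was not called, beside 16.6% of genes. In iAdFASNKO Lin- a further 16 Il13 UMIs lay in ungated cells. Mast-cell-like cells held 1, 1, 1 and 5 Il13 UMIs in the 4 libraries.

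Il5, the eosinophil growth and survival factor, had 25 UMIs, of which 23 lay in ILC2-like cells of Lin-, 10 in 3 control cells (40.7 CPM) and 13 in 5 iAdFASNKO cells (67.6 CPM), and the ratio of 1.66 (0.673 to 4.23) was not called. Il4 had 29 UMIs. Mast-cell-like cells held 11 of them (1, 1, 4 and 5 in control Lin-, control Lin+, iAdFASNKO Lin- and iAdFASNKO Lin+) and ILC2-like cells 2. Mast-cell-like cells thus held both Il4 and Il13 (11 and 8 UMIs), and 0 Il5 UMIs.

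Areg encodes amphiregulin, a ligand of the epidermal growth factor receptor made by ILC2 and by tissue regulatory T cells. In ILC2-like cells of Lin- control stood at 586 CPM (144 UMIs in 22 of 60 cells) and iAdFASNKO at 915 CPM (176 UMIs in 16 of 82 cells, 41 of them in 1 cell). The ratio of 1.56 (1.25 to 1.96) was called higher, while a smaller share of the shallower iAdFASNKO cells had a UMI. It was 1.68 in cells of at least 2000 UMIs, 1.48 and not called without the highest cell of each library, 1.27 and not called under the stricter cell filter, and 1.14 and not called with classes from clusters.

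Treg-like cells of Lin+ went from 193 CPM of Areg (17 UMIs, 16 control cells) to 103 CPM (66 UMIs, 80 iAdFASNKO cells), which gave 0.533 (0.309 to 0.969) called lower where 10.1% of genes were. Without the shared barcodes the levels were 226 and 73.3 CPM and the ratio 0.324, and without the highest cell of each library it was 0.581 and not called. The median depth of these Treg-like cells was 2517 UMIs in control and 5176 in iAdFASNKO. Erythroid markers in them summed to 1567 CPM in control and 13940 CPM in iAdFASNKO. The part of depth and of these markers was not tested. All T-cell-like cells of Lin+ had 0.516 (0.334 to 0.812), called lower beside 10.4% of genes. Treg exceeded other T cells 8.36-fold in control, and in iAdFASNKO, where the other T cells had 1 UMI, 272-fold (47.1 to 10892). Krt8/Epcam cells of control Lin- held 72 Areg UMIs (96.7 CPM), of which 1 UMI (6.63 CPM) was left without the shared barcodes.

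Il17rb is a chain of the receptor for interleukin 25, a further ILC2 activator. It had 119 UMIs, and ILC2-like cells of Lin- held 15 in control (61.0 CPM, 11 cells) and 29 in iAdFASNKO (151 CPM, 23 cells). The ratio of 2.47 (1.28 to 4.96) was called higher and stayed called in cells of at least 2000 UMIs (2.60) and without the shared barcodes (3.03). Over all cells of Lin- the ratio was 3.14, with an interval above 1 and 19.3% of genes called. Of the 65 iAdFASNKO UMIs, 21 lay in ungated cells. Schwann-like cells of Lin- had 20.6 and 19.3 CPM, from 4 and 6 UMIs.

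Il2ra encodes the high-affinity chain of the interleukin 2 receptor, a mark of regulatory T cells and activated ILC2. Control ILC2-like cells of Lin- held 399 CPM and those of iAdFASNKO 223 CPM. The ratio was 0.560 (0.382 to 0.810) and was called lower, with 0.649 (0.428 to 0.966) in cells of at least 2000 UMIs. Treg-like cells of Lin+ had 136 and 184 CPM, 11.1-fold and 23.1-fold above the other T cells, and their ratio of 1.35 was not called. Mural cells of Lin- went from 13.8 to 4.83 CPM, a ratio of 0.350 (0.174 to 0.697) called lower beside 9.76% of genes, and committed progenitors stayed between 2.66 and 4.09 CPM in the 4 libraries.

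Gata3 is the transcription factor of ILC2 and type 2 helper T cells and is also active in glandular epithelium. ILC2-like cells of Lin- held 761 CPM (control) and 541 CPM (iAdFASNKO), in 49 of 60 and 45 of 82 cells, and the ratio of 0.710 (0.553 to 0.908) was not called. Krt8/Epcam cells of Lin- held 448 CPM in control, below ILC2-like cells, and 637 CPM in iAdFASNKO, where their ratio to ILC2-like cells was 1.18 (0.783 to 1.73). The ratio between genotypes was 1.42 and was not called (5.80% of genes called) and became 2.19 and was called higher without the shared barcodes (325 and 711 CPM). Treg-like cells of Lin+ had 159 and 145 CPM and natural-killer-like cells 154 and 132 CPM.

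Gata3 was lower in the other T cells of iAdFASNKO and higher in its interstitial progenitors. In T-cell-like cells of Lin+ other than Treg and gamma-delta cells it went from 89.2 to 56.8 CPM, a ratio of 0.637 (0.467 to 0.878) called lower beside 8.92% of genes, and in Lin- the ratio was 0.253 from 9 and 44 cells (15.5% of genes called). In interstitial cells of Lin+ it went from 0.987 CPM (7 UMIs) to 3.64 CPM (27 UMIs), a ratio of 3.69 (1.57 to 10.0). T cell markers in those interstitial cells went from 5.50 to 14.0 CPM in sum and B cell markers from 30.7 to 78.0 CPM, and their part in the result was not tested. In Lin- the committed (0.209) and mural (0.0764) ratios were called lower, but the first turned to 2.16 under the stricter cell filter and the second rested on 17 UMIs of 1 cell with a shared barcode.

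**Figure D5:**
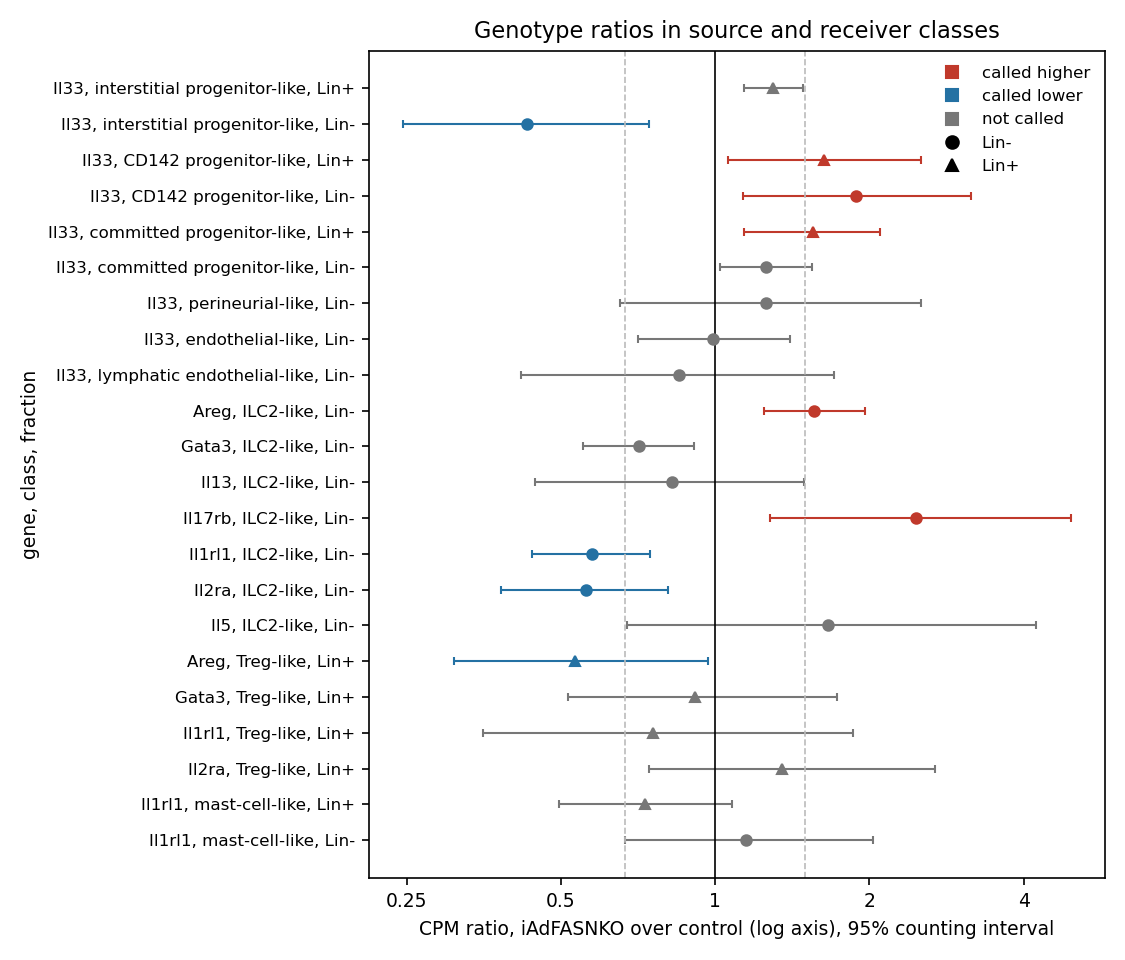
CPM ratio of iAdFASNKO over control (horizontal log axis) with 95% counting intervals for Il33 in stromal classes and for the members measured in ILC2-, Treg- and mast-cell-like cells; dashed lines mark 1.5 and 1/1.5, red is called higher, blue called lower and grey not called. In ILC2-like cells Il1rl1 (0.574) and Il2ra (0.560) lie on the low side and Areg (1.56) and Il17rb (2.47) on the high side.

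Of 56 member, class and fraction combinations with at least 20 UMIs, 8 were called higher, 11 lower and 37 were not called. They include all progenitor-like and all T-cell-like cells beside their subclasses and so count some UMIs more than once. In these classes and fractions, between 5.80% (Krt8/Epcam cells of Lin-) and 23.8% (mast-cell-like cells of Lin-) of all measured genes were called in either direction. Among them, natural-killer-like cells of Lin- and Lin+ had 13.2% and 8.46% of all genes called, gamma-delta T cells of Lin+ 10.5% and all T-cell-like cells of Lin- 17.5%. Of 7 members measured in ILC2-like cells of Lin-, 2 were called higher, 2 lower and 3 not, where 10.3% and 6.33% of the 2968 genes measured there were called higher and lower. Over whole libraries Il33 had a ratio of 1.08 in both fractions, not called beside 19.3% of genes in Lin- and 23.8% in Lin+, and 1.25 and 1.21 without the shared barcodes. Gata3 had a ratio of 0.527 in Lin-, called lower, but 334 of its 639 control UMIs lay in Krt8/Epcam cells and without the shared barcodes the ratio was 1.08 (0.910 to 1.29) and not called. In Lin+ it was 1.69, and 1.67 without them, called higher both times. T-cell-like cells were 6.65% of the control and 15.6% of the iAdFASNKO cells of Lin+. Within them the Gata3 ratio was 0.694 and not called, and the part of this cell mix was not tested.

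Detection of several members in 1 cell was counted in ILC2-like cells. Of 149 such cells, 79 had an Il1rl1 UMI and 64 of those (81.0%) also had Gata3, a share that was 58.3% after thinning to 1000 UMIs. Areg was seen in 38 cells, 29 of them with Il1rl1. Il13 was seen in 17 cells, 4 with Il1rl1, 3 with Areg and 0 with Il5. Of 34 cells with Il17rb, 9 had Il1rl1, and of 61 with Il2ra, 44 did. Cells with neither a receptor or Gata3 nor an effector UMI numbered 1 of 60 in control and 14 of 82 in iAdFASNKO Lin-, at the lower depth of the latter. All 7 mast-cell-like cells with Il4 had Il1rl1, and 0 of the 5 with Il13 had Il4.

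The other genes of the pathway were taken from lists. In ILC2-like cells of Lin- the median log2 ratio over all measured genes was 0.11, with 10.3% called higher and 6.33% lower. The interleukin 33 receptor and signalling list had 4 of 11 genes measured there, with 0 higher and 2 lower and a median of -0.65. Nfkb1, a subunit of NF-kappaB, had 0.473 (0.365 to 0.607). The regulators of type 2 lymphocytes had 9 of 14 measured and 2 lower, Klrg1 (0.393), an ILC2 maturation marker, and Arg1 (0.298), arginase 1, both of which also served in the ILC2 gate. The receptors for interleukins 5 and 25 and for TSLP had 4 of 7 measured, with Il17rb higher and Crlf2, the TSLP receptor chain, lower (0.358). Of the tissue regulatory T cell genes 6 of 12 were measured and 3 were lower, among them Ccr2 (0.507) and Batf (0.0608, from 21 and 1 UMIs). Of 10 dissociation stress genes, 5 were lower, Fos (0.428) and Fosb (0.295) among them, and 1 was higher, Egr1 (3.65, from 7 and 20 UMIs), named after its value was seen.

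In progenitor-like cells of Lin-, with a median log2 ratio of 0.05 over all genes and 9.81% called higher and 5.64% lower, 6 of 11 alarmins and related factors were measured. Tslp, an epithelial and stromal alarmin, was higher (1.76, from 6.54 to 11.5 CPM), as was Il2 as counted by the authors (1.94; reads of overlapping genes were not examined), and Il7, a lymphocyte survival factor, was lower (0.394). Of 7 measured genes for receiving interleukins 4 and 13, Il13ra1 (2.54) and Il2rg (4.80) were higher and 0 were lower. Csf2rb (8.47), Csf2rb2 (3.15) and Il17ra (1.67) were higher among 5 measured receptors for interleukins 5 and 25 and TSLP. The part of RNA from other cells in these receptor ratios was not tested. Of 10 measured genes of the interleukin 33 receptor complex and signalling, 1 was lower, Il1rl1 itself. Btc (0.504), an epidermal growth factor receptor ligand, Il6 (0.592) and Pparg (0.594), the adipogenic nuclear receptor, were lower, 1 each from the lists of epidermal growth factor genes, type 2 regulators and regulatory T cell genes (7, 5 and 4 measured), and 4 of 10 stress genes were lower with a list median of -0.53.

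In T-cell-like cells of Lin+, with a median log2 ratio of -0.04 over all genes and 2.78% called higher and 7.66% lower, all 11 interleukin 33 signalling genes were measured and 0 were called. Rora (0.348) and Id2 (0.588), regulators shared by ILC2 and T cells, were lower among 7 measured regulators. Foxp3 was higher (2.30, from 18.1 to 41.6 CPM) and Tnfrsf18 (0.635) and Ccr2 (0.432) were lower among 10 measured regulatory T cell genes. Treg-like cells were 16 of 192 T-cell-like cells in control and 80 of 690 in iAdFASNKO. Stress genes were lower in 8 of 10 cases, with a list median of -0.84.

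Genes with a pattern most like Il33 over 41 class-by-library profiles of at least 30 cells, among 12352 genes, were Pir (r = 0.88), Arhgap42 (0.88), Lbp (0.86), Cpne8 (0.85) and Tspan6 (0.85), as Pearson correlations of log2(CPM + 10). Over the 22 profiles of at least 100 cells they were 0.83, 0.77, 0.93, 0.92 and 0.83. For Il1rl1 they were Ltb4r1 (0.81), a leukotriene receptor that served in the ILC2 gate, Areg (0.80), Cysltr1 (0.78), Il2ra (0.76) and Slc7a8 (0.73). Over the larger classes, which leave out ILC2-like cells, these were between -0.17 and 0.40. Mast-cell-like cells, with 7 to 20 per library, were too few for either set. Profiles of 1 library share its depth and free RNA, and these values are descriptions.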

How the data were processed

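Single-cell RNA was measured in 4 libraries. Per the file headers, the deposited values are counts: integers of UMIs for each gene in each barcode, not normalized. The submitters' processing notes name Cell Ranger 3.1.0, Seurat 3.0 and mm10, without settings, and the matrix header gives software version 3.0.2. A matrix holds both fractions of 1 genotype. The labels assign the barcode tags to fractions, and the genotype was read from the matrix name, so a wrong name would turn every direction.

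Kept barcodes had 300 or more genes, 500 or more UMIs and no more than 10% from mitochondria. Scrublet (scanpy 1.11.5, expected rate 0.06) called 0.935% to 2.22% doublets per library, which were removed. Classes were gated in each cell on marker lists that hold no member, for example at least 3 of 12 ILC2 markers with at most 1 of the CD3 and T cell receptor alpha genes. Gate thresholds and the Krt8/Epcam class were set after the data were seen. The members and all lists were chosen with earlier results of these data known. An alternative took classes from Leiden clusters (leidenalg 0.10.2, 2000 variable genes, 30 components, 20 neighbours, resolution 1), whose numbers are also used in the text.

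UMIs were summed per class and library. CPM carry exact Poisson intervals, ratios exact conditional binomial intervals and shares Clopper-Pearson intervals, all 95% (scipy 1.17.1). They and the floor of 3 counts cover counting error only, not cells, mice or preparations. The ratio code was tested on simulated counts. Named genes were all members, up to 4 called genes per list with the most UMIs in progenitor-like (Lin-), ILC2-like (Lin-) and T-cell-like (Lin+) cells, and the 5 genes most like Il33 and Il1rl1 among those with at least 200 UMIs. Gene positions are those of GENCODE M21. The alternatives without shared barcodes and without haemoglobin UMIs, and the thinned joint detection, were chosen after seeing the data.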

Additional observations from a re-analysis of the deposited data

Results flagged for a closer look

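In 3 pairs of results a member pointed in opposite directions under the same contrast. The differences themselves were not tested, since each group is 1 library. Il33 in interstitial progenitor-like cells had a ratio of iAdFASNKO over control of 0.429 in Lin-, called lower, and 1.30 in Lin+, not called. Areg had a ratio of 1.56 in ILC2-like cells of Lin- and 0.533 in Treg-like cells of Lin+, and neither stayed called without the highest cell of each library. Gata3 had a ratio of 3.69 in interstitial progenitor-like cells of Lin+ and 0.637 in the T-cell-like cells of Lin+ other than Treg and gamma-delta cells.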

How the results depend on the processing

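No paired analysis was possible because each genotype and fraction is 1 library. Of 19 called ratios, 19 stayed called without haemoglobin UMIs, 17 with doublets kept, 17 under the looser cell filter, 15 under the stricter marker gate and 16 of 18 that could be computed without the shared barcodes, 14 of 17 with classes from clusters, 12 of 18 without the highest cell of each library and 11 of 18 under the stricter cell filter, where 5 in place of 11 ratios were lower. Treg-, gamma-delta-, macrophage-like and Krt8/Epcam cells have no value from clusters. Il33 in committed progenitors of Lin+ turned to 0.786 (stricter cell filter) and 0.910 (without the highest cell), and Gata3 in committed progenitors of Lin- to 2.16 (stricter cell filter) and 1.82 (clusters). Areg in ILC2-like cells was 1.14 with clusters. The cause was not tested. The stromal share of Il33 UMIs, 92.7% over the 4 libraries, was 97.4% (stricter cell filter), 95.6% (clusters), 90.8% (mean over cells) and 96.8% (without the shared barcodes). The lymphoid share of Il1rl1 UMIs, 36.2%, was 33.0% (looser filter), 39.9% (stricter filter) and 43.1% (without the shared barcodes). Thinning to 1000 and 2000 UMIs leaves fewer UMIs per cell and leaves out cells below that depth. Shares of cells with an Il33 UMI fell with it. In interstitial cells of Lin+ they were 6.38% and 8.48% in control and 7.19% and 12.8% in iAdFASNKO. In endothelial cells of Lin- they were 7.23% and 11.5% in control and 9.14% and 10.5% in iAdFASNKO. Il1rl1 in ILC2-like cells of Lin- was 44.1% (control) and 25.6% (iAdFASNKO) at 1000 UMIs. At 2000 UMIs the iAdFASNKO share lay above its unthinned value. The share of ILC2-like cells with Il1rl1 that also had Gata3 was 58.3% at 1000 UMIs. Correlations with Il1rl1 over classes of at least 100 cells were 0.307 (Ltb4r1), -0.0197 (Il2ra) and -0.168 (Slc7a8). Il13, Il5 and Il4, at 95, 25 and 29 UMIs, could show only large differences.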
